A study of Mus musculus with 13 samples.

Results

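The prostaglandin genes described here are 10 of the 15213 genes in the deposited expression table: the cyclooxygenases Ptgs1 and Ptgs2, the terminal synthases Ptges, Ptges2, Ptgis and Ptgds, the prostaglandin E2 receptors Ptger2, Ptger3 and Ptger4, and the degrading enzyme Hpgd. They were chosen by gene symbol, and all 10 were found. Total RNA was sequenced from 10 mammary tumors that arose in MMTV-tTA TetO-Tsg101 females carrying both transgenes (genotype MtTA Teto-TSG101wt in the sample labels) and from the normal mammary glands of 3 wild-type FVB females. In the transgenic animals, the mouse mammary tumor virus promoter drives a transactivator in the luminal mammary epithelium, which in turn switches on the TetO-Tsg101 transgene in the absence of doxycycline, and the study examined the molecular features of the resulting adenosquamous carcinomas. The 10 tumors came from 6 females, of which 3 gave 1 tumor, 2 gave 2 tumors (tumors 2 and 3, and tumors 5 and 6) and 1 gave 3 tumors (tumors 8, 9 and 10). Tumors of the same female are therefore not independent animals. The age and the reproductive stage of the sequenced females were not given in the sources used here, and no gland of a transgenic female was part of the comparison, so that the effects of the transgenes, of the tumor and of the tissue composition cannot be told apart.

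Prostaglandins are short-lived lipid signals. Phospholipases release arachidonic acid from membranes, the cyclooxygenases COX-1 (Ptgs1) and COX-2 (Ptgs2) convert it to prostaglandin H2, and terminal synthases turn this intermediate into prostaglandin E2, prostacyclin or prostaglandin D2. Prostaglandin E2 acts on the G protein-coupled receptors EP1 to EP4, of which EP2 and EP4 raise cyclic AMP and EP3 mainly lowers it, and 15-hydroxyprostaglandin dehydrogenase (Hpgd) inactivates it. COX-1 is present in many resting tissues, whereas COX-2 is induced by growth factors and inflammatory cytokines, and its forced expression in the mammary epithelium of mice is known to cause tumors.

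Of the 10 genes, 3 were significantly higher in the tumors (Ptgs1, Ptgs2 and Hpgd) and 1 was significantly lower (Ptger3). The other 6 did not pass the test. The values are in normalized cpm, that is, reads scaled to a common library size with a normalization factor for each library. A gene was considered significantly deregulated at a false discovery rate below 0.05 with a change of more than 2-fold, tested with limma on log2(normalized cpm + 1) across all genes. Of the 11795 genes that passed the filter on low values, 17.2% were significantly deregulated (10.2% higher, 6.99% lower). Of the 10 genes, 7 passed this filter, and Ptgis, Ptgds and Ptger3 were at 5 normalized cpm or less in more than 50% of the libraries and were therefore taken from the same fit without the filter. In that fit, 20.6% of the 15213 genes were significantly deregulated, 10.5% higher and 10.1% lower.

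**Figure D1:**
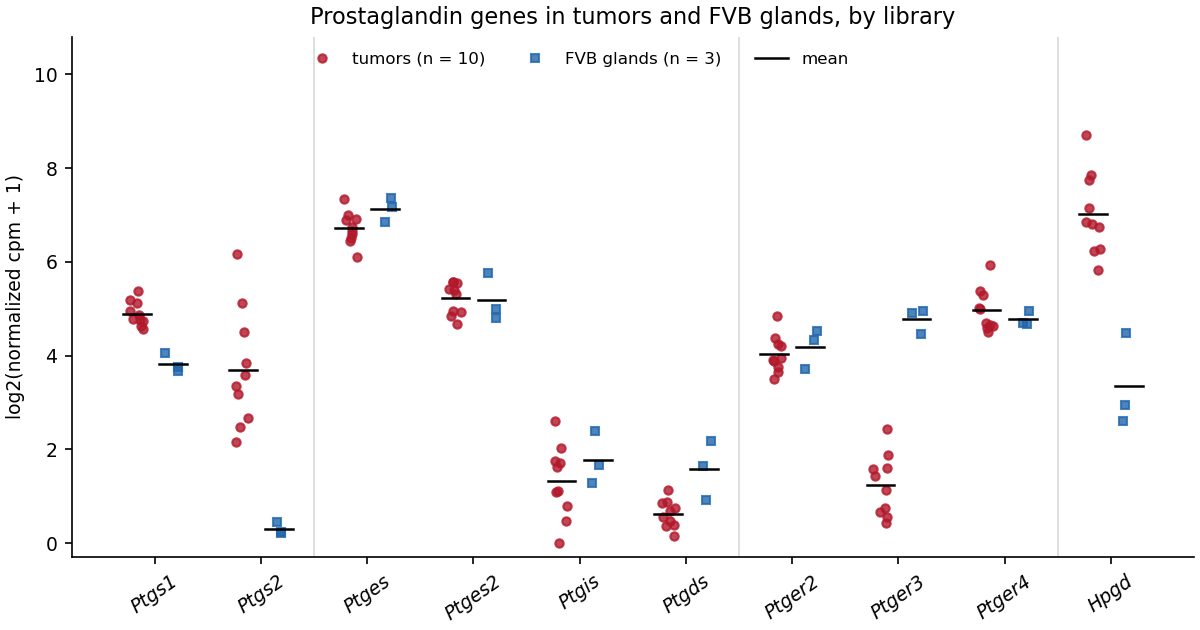
Level of the 10 prostaglandin genes in each library on the log2(normalized cpm + 1) axis, with red circles for the 10 tumors, blue squares for the 3 FVB glands and a black line for the mean of each group; grey lines separate cyclooxygenases, synthases, receptors and Hpgd. Tumors and glands did not overlap for Ptgs1, Ptgs2, Ptger3 and Hpgd, and overlapped for the other 6 genes.

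**Figure D2:**
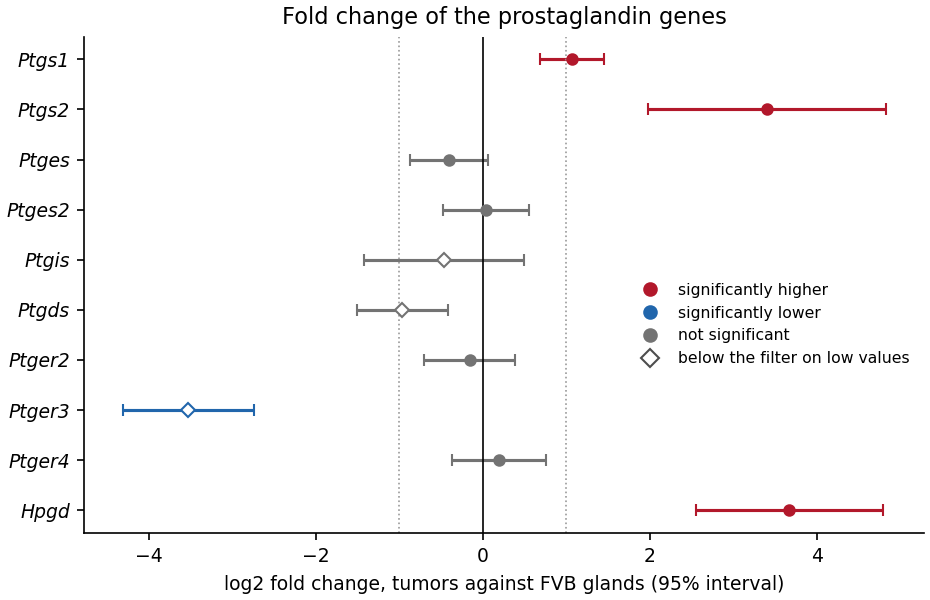
Log2 fold change of tumors against FVB glands with its 95% interval from limma (horizontal axis) for each of the 10 genes; dotted lines mark a 2-fold change. Only Ptgs1, Ptgs2 and Hpgd are significantly higher and only Ptger3 is significantly lower, and open diamonds mark the 3 genes below the filter on low values.

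The libraries differed in depth, with 6176269 to 16835397 reads on the listed genes for tumors and 11672487 to 23889042 for glands. A total of 3 reads, the limit that a count of 0 allows, was worth 0.141 to 0.683 normalized cpm in a tumor library and 0.128 to 0.366 in a gland library. Tumor 9 and gland 3 had the smallest normalization factors (0.711 and 0.703), and reads of the ribosomal precursor Rn45s made up 27.4% of tumor 9. The expression of Tsg101 itself was 66.5 ± 15.5 normalized cpm (SD, n = 10 tumors) against 53.2 ± 7.68 (SD, n = 3 glands) (log2 fold change 0.30, adjusted p = 0.296, limma). A read of the transgene cannot be told apart from one of the endogenous gene in this table. The tissues also differed in composition. The 14 epithelial markers summed to 2435 to 3441 normalized cpm per tumor (median 2924) and to 1671 to 3454 per gland (median 2345). Both tissues thus held epithelial transcripts, but the ranges overlapped only through the highest gland, and the gland median lay below every tumor. All 7 milk genes were lower in the tumors (1384 to 76623 against 165030 to 305120 normalized cpm in sum), and 9 of 10 squamous markers were higher (577 to 4194 against 17.1 to 41.6). The part of these differences in the results on the prostaglandin genes was not tested. In such bulk tissue, fewer cells of a type and less RNA per cell cannot be told apart.

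The sequences around the transcription start of the 4 deregulated genes are shown because their messages moved by different amounts, and because Ptgs2 is known for its inducible promoter. Each run covers 250 bases before and 30 bases after the start in the RefSeq annotation (GRCm38.p6), written 5′ to 3′ on the strand of the gene. All 4 genes are on the plus strand. The windows are chr2:36230176-36230455 (Ptgs1), chr1:150099781-150100060 (Ptgs2), chr8:56294302-56294581 (Hpgd) and chr3:157566626-157566905 (Ptger3). Capitals mark matches to 6 motifs searched on both strands, where N is any base. The TATA box was spelled as TATAAA. The letters of the E-box, which binds basic helix-loop-helix proteins, were CACGTG. The core of the cyclic AMP response element (CRE) was spelled as TGACGT. The GC box of Sp1 and related factors was spelled as GGGCGG. The letters of the C/EBP motif, named after the proteins that bind it, were TTNNGCAA. For AP-1, the dimer of Fos and Jun proteins, they were TGANTCA.
Ptgs1: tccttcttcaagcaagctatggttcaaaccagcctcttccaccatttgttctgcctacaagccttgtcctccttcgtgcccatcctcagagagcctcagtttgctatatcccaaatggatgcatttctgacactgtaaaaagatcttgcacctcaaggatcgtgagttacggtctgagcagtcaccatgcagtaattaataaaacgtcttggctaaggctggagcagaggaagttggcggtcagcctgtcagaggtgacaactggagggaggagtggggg
Ptgs2: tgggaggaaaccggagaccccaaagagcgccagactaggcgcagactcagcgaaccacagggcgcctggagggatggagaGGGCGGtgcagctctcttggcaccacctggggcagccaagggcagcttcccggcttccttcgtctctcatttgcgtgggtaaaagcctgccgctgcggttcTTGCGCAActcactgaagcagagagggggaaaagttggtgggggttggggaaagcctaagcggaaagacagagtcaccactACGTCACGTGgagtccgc
Hpgd: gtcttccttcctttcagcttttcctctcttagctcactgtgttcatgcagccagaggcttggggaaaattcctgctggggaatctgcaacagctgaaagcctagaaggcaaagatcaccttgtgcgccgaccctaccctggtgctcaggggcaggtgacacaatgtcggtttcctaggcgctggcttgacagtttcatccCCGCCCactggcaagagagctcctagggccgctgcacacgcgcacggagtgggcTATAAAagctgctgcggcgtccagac
Ptger3: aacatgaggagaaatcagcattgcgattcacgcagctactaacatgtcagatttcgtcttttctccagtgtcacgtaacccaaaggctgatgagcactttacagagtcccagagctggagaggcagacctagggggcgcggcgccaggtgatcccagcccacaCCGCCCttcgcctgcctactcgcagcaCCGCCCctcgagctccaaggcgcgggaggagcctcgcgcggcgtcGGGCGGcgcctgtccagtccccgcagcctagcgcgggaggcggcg

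The Ptgs2 window held 4 of the 6 motifs. Counted from the start, a GC box lay at bases -170 to -165, and the palindrome TTGCGCAA, a C/EBP match on both strands, lay at -69 to -62. The run of capitals at bases 13 to 22 after the annotated start holds a CRE core on the minus strand that shares 2 bases with an E-box. Overlapping CRE and E-box elements and a C/EBP site are textbook elements of this promoter. Among 32851 RefSeq windows of the same length, a CRE core was present in 7.26%, an E-box in 6.79%, a C/EBP match in 10.4% and a GC box in 34.7%. The Ptgs1 window held none of the 6 motifs, and its GC content was 49.6%, compared with 61.4% for Ptgs2 and a median of 52.5% over all windows. The Hpgd window held a GC box on the minus strand, at bases -50 to -45, and a TATA box (13.1% of all windows) at bases 5 to 10 after the annotated start. The Ptger3 window held 3 GC boxes. AP-1 matches, which were present in 7.46% of all windows, were found in none of these 4. A match is a run of letters and not a measured binding site.

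Both cyclooxygenases were higher in the tumors, but to different degrees. Ptgs1 (Entrez 19224; GRCm38.p6 chr2:36216742-36258593), which encodes the constitutive enzyme, had levels of 28.0, 26.5, 29.9, 35.3, 23.7, 22.7, 40.6, 25.9, 33.9 and 25.5 normalized cpm in tumors 1 to 10, and of 11.8, 15.6 and 12.4 in glands 1 to 3. Every tumor exceeded every gland, and the tumors spanned a narrow range of 1.78-fold. The mean was 29.2 ± 5.73 normalized cpm (SD, n = 10 tumors) against 13.3 ± 2.02 (SD, n = 3 glands). The log2 fold change of Ptgs1 was 1.07 (standard error 0.18, 95% interval 0.69 to 1.45, adjusted p = 0.000407, limma). This change lies just past 2-fold, and Ptgs1 no longer met that limit without gland 1 (log2 fold change 0.99, adjusted p = 0.00506) or when the libraries were scaled to the epithelial markers (0.86, adjusted p = 0.0168). The RefSeq start used for the window printed above lies inside the annotated span of Ptgs1. A stretch of 148 exon bases of Ptgs1 overlaps Gm43621 on the opposite strand, and the strand setting of the counting was not stated.

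Ptgs2 (Entrez 19225; GRCm38.p6 chr1:150100031-150108234), the inducible cyclooxygenase, was close to the limit of detection in the glands. Glands 1, 2 and 3 had 4, 3 and 3 reads, or 0.171, 0.155 and 0.366 normalized cpm. In tumors 1 to 10, the levels were 3.48, 13.2, 8.09, 5.35, 21.5, 4.53, 33.7, 9.18, 70.8 and 10.97 normalized cpm, from 48 to 321 reads each. The lowest tumor was thus far above the highest gland, while the tumors themselves spanned 20.3-fold, with tumors 9, 7 and 5 at the upper end and tumors 1, 6 and 4 at the lower end. The log2 fold change was 3.41 (standard error 0.66, 95% interval 1.99 to 4.83, adjusted p = 0.00139, limma), from means of 18.1 ± 20.7 (SD, n = 10 tumors) and 0.231 ± 0.117 normalized cpm (SD, n = 3 glands). The added 1 in the logarithm understates the change of so low a gene. Pooled over libraries, 1377 tumor reads and 10 gland reads gave a ratio of 67.5 after scaling for library size, with an exact 95% counting interval of 36.6 to 141 that does not include the spread between tumors. Without tumor 9, this ratio, recomputed after seeing the data, was 54.6 and the log2 fold change was 3.13 (adjusted p = 0.000472). Ptgs2 passed the filter on low values through its tumor levels alone. All 10 tumors lay above all 3 glands for Ptgs1, Ptgs2 and Hpgd, as for 10.7% of the genes past the filter and 11.4% of all listed genes.

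**Figure D3:**
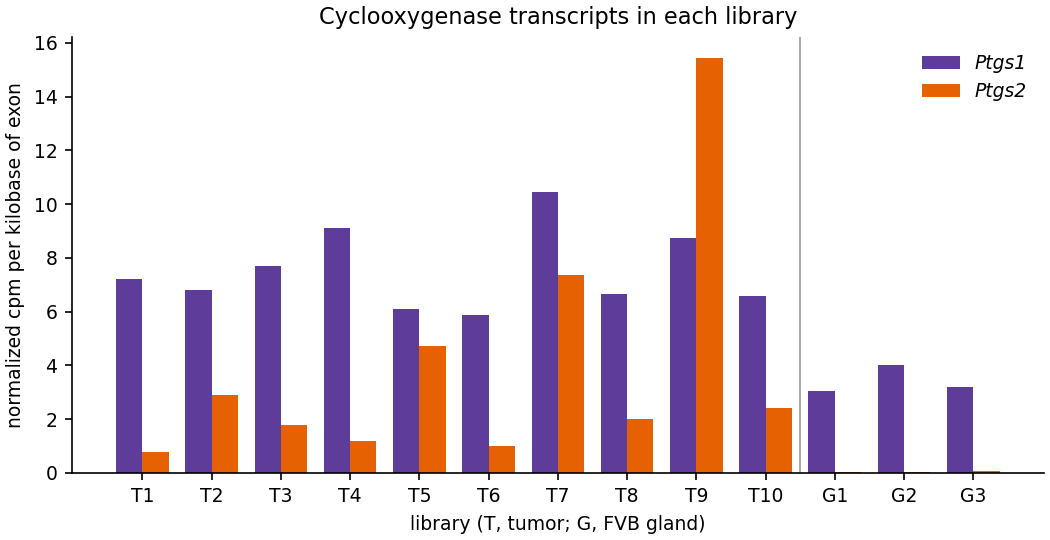
Ptgs1 (purple) and Ptgs2 (orange) in each library, as normalized cpm per kilobase of merged exon, for tumors T1 to T10 and FVB glands G1 to G3. Ptgs2 exceeded Ptgs1 in tumor 9 only, and its bars in the glands, at 0.034 to 0.080, are barely visible.

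Per kilobase of exon, the balance between the cyclooxygenases also shifted. Ptgs2 made up between 9.53% and 63.9% of the summed Ptgs1 and Ptgs2 level in the tumors, with a median of 24.9%, and between 0.835% and 2.43% in the glands. The ranges did not overlap. Tumor 9 was the only library in which Ptgs2 was the larger of the pair, followed by tumor 5 with 43.5% and tumor 7 with 41.3%. The summed level was 6.85 to 24.2 normalized cpm per kilobase in the tumors and 3.08 to 4.05 in the glands, again without overlap. Neutrophil markers, of which 5 of 6 were listed, summed to 302 to 3939 normalized cpm per tumor and to 3.92 to 49.3 per gland, and 3 of the 5 were significantly higher. Macrophage markers summed to 367 to 736 per tumor and to 312 to 321 per gland, with 1 of 7 significantly higher. Their part in the Ptgs2 levels was not tested.

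None of the 4 terminal synthases passed both criteria. Ptges (Entrez 64292; chr2:30889471-30931020) encodes the inducible microsomal prostaglandin E synthase that works together with COX-2. Its levels ran from 68.0 to 161 normalized cpm in the tumors, with a median of 103, and at 113, 164 and 142 in the glands. Below all glands lay 6 tumors, and the log2 fold change was -0.40 (standard error 0.22, 95% interval -0.87 to 0.06, adjusted p = 0.193, limma). The interval of Ptges ended at 0.06, so that these libraries gave no rise of this synthase beside the higher Ptgs2. Ptges2 (Entrez 96979; chr2:32395890-32402740), a second prostaglandin E synthase, ran from 24.3 to 46.5 normalized cpm in the tumors and was at 26.8, 30.7 and 52.9 in the glands. The fit gave Ptges2 a log2 fold change of 0.04 (standard error 0.24, 95% interval -0.47 to 0.55, adjusted p = 0.922, limma). Gland 3 alone set the upper end of the Ptges2 range.

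The remaining synthases were at low abundance. Ptgis (Entrez 19223; chr2:167203194-167252150), the prostacyclin synthase of vascular cells, ranged from 0 reads in tumor 3, which allows up to 0.337 normalized cpm, to 5.06 normalized cpm in tumor 8. The glands were at 1.41, 2.17 and 4.27, within the range of the tumors. The log2 fold change of Ptgis was -0.46 (standard error 0.45, 95% interval -1.42 to 0.49, adjusted p = 0.469, limma without the filter). Ptgds (Entrez 19215; chr2:25466709-25470110), the lipocalin-type prostaglandin D synthase, ran from 0.112 to 1.19 normalized cpm in the tumors, from 1 to 10 reads each, and at 2.14, 0.878 and 3.54 in the glands. Below all glands lay 9 tumors. Its log2 fold change of -0.96 (standard error 0.26, 95% interval -1.51 to -0.42, adjusted p = 0.00998, limma without the filter) passed the false discovery rate but not the 2-fold limit. Ptgds did pass both with the count tests on recovered reads, at -1.95 (adjusted p = 0.00693) with edgeR and -1.97 (adjusted p = 0.00291) with DESeq2. It missed the false discovery rate without gland 3 (log2 fold change -0.66, adjusted p = 0.0702) and without gland 1 (-0.93, adjusted p = 0.0503). Endothelial markers were lower in the tumors (6 of 7 significantly; 52.6 to 114 against 255 to 568 normalized cpm in sum), and their part in the levels of these synthases was not tested.

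Among the receptors, Ptger3 stood apart. Ptger3 (Entrez 19218; chr3:157566821-157644758) encodes EP3, which mainly couples to inhibitory G proteins and is known to be abundant in adipose tissue. Its levels were 0.480, 2.01, 0.337, 2.68, 2.05, 1.70, 4.40, 1.18, 0.683 and 0.593 normalized cpm in tumors 1 to 10, from 3 to 57 reads each, and 28.9, 21.0 and 29.9 in glands 1 to 3. All tumors were below all glands, a pattern shared by 10.3% of all listed genes and by 8.53% of those past the filter. The mean fell from 26.6 ± 4.85 normalized cpm (SD, n = 3 glands) to 1.61 ± 1.26 (SD, n = 10 tumors). The log2 fold change was -3.52 (standard error 0.37, 95% interval -4.31 to -2.73, adjusted p = 5.43e-06, limma without the filter). All 8 adipocyte markers were significantly lower in the tumors as well, with sums of 36.6 to 297 normalized cpm in the tumors and of 2969 to 9466 in the glands. Fibroblast markers (4 of 8 significantly lower; 285 to 925 against 1483 to 2454) and lymphocyte markers (7 of 8; 9.49 to 87.6 against 22.5 to 446) moved in the same direction. Whether these cells account for the lower level of Ptger3 was not tested.

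The cyclic AMP-raising receptors did not change detectably. Ptger2 (Entrez 19217; chr14:44988111-45003820), which encodes EP2, was between 10.3 and 27.5 normalized cpm in the tumors, with a median of 14.3, and at 12.1, 19.1 and 21.9 in the glands. Ptger4 (Entrez 19219; chr15:5233399-5244187), which encodes EP4, was between 21.6 and 60.1 in the tumors, with a median of 28.0, and at 24.5, 24.8 and 29.99 in the glands. Tumor 9 was the highest library for both receptors. The log2 fold changes were -0.15 for Ptger2 (standard error 0.25, 95% interval -0.70 to 0.39, adjusted p = 0.695, limma) and 0.20 for Ptger4 (standard error 0.26, 95% interval -0.36 to 0.75, adjusted p = 0.623, limma). Both intervals exclude a 2-fold change in either direction. Exons of both genes overlap others on the opposite strand, over 1015 bases (15.3%) with Gm15937 for Ptger4 and over 246 bases with Gm17173 for Ptger2.

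**Figure D4:**
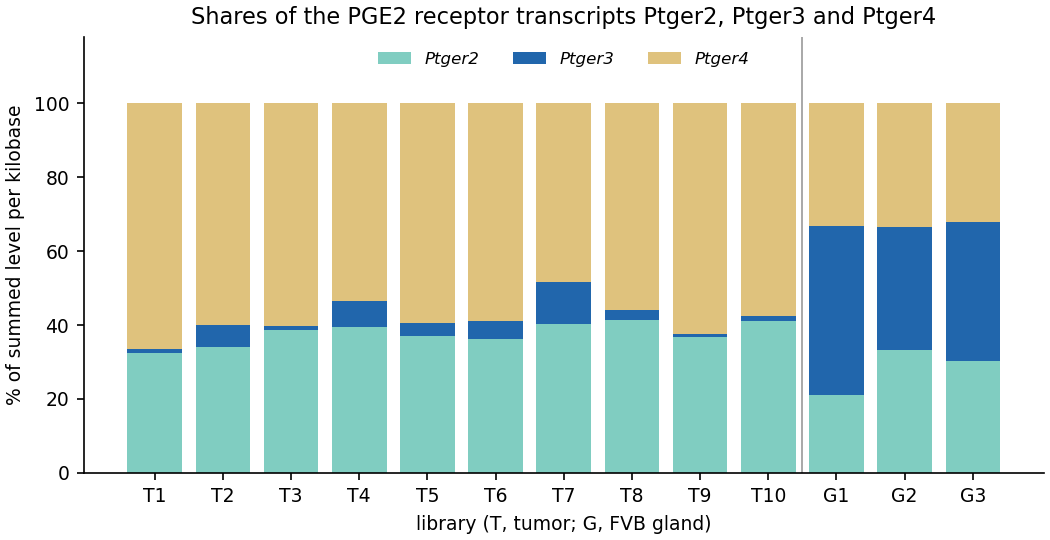
Share of Ptger2, Ptger3 and Ptger4 in their summed level per kilobase of exon (vertical axis, %), for tumors T1 to T10 and FVB glands G1 to G3, with EP1 left out. Ptger3 (blue) takes 33.3% to 45.8% in the glands and at most 11.5% in the tumors.

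The balance among Ptger2, Ptger3 and Ptger4 therefore differed between the tissues. EP1 was not among the genes chosen and was left out of the sum, so these are not shares of all EP receptor transcripts, and each would be smaller with EP1 included. Per kilobase of exon, Ptger3 made up between 0.830% and 11.5% of the summed level of these 3 receptors in the tumors, with a median of 3.00%, and between 33.3% and 45.8% in the glands. Tumor 7 had the highest share, followed by tumor 4 with 7.07%. Ptger4 made up 48.3% to 66.6% in the tumors and 32.3% to 33.6% in the glands, also without overlap, whereas the shares of Ptger2 overlapped (32.4% to 41.5% and 21.0% to 33.1%). Since shares add up to a whole, the larger shares of Ptger4 and Ptger2 arose beside the drop of Ptger3 and do not mean that their own levels rose.

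Hpgd (Entrez 15446; chr8:56294552-56321046), which starts the breakdown of prostaglandin E2, had the largest log2 fold change of the 10 genes at a pseudocount of 1 with all libraries. That of Ptgs2 was larger at pseudocounts of 0.5 (4.09 against 3.75) and 0.1 (5.21 against 3.82). The same held in the count tests (6.38 against 3.80 with edgeR). At a pseudocount of 1, Ptgs2 was also larger without tumor 1 (3.58 against 3.49) and without gland 2 (3.36 against 3.31). The fall of Ptger3 was larger in size in several settings, such as without gland 2 (-3.68) and with epithelial scaling (-3.73 against 3.45). Levels of Hpgd were 415, 55.8, 114, 228, 111, 76.3, 74.6, 141, 215 and 107 normalized cpm in tumors 1 to 10, and 6.72, 5.11 and 21.2 in glands 1 to 3. The lowest tumor exceeded the highest gland by a wide margin. The mean was 154 ± 108 normalized cpm (SD, n = 10 tumors) against 11.0 ± 8.87 (SD, n = 3 glands), giving a log2 fold change of 3.68 (standard error 0.52, 95% interval 2.55 to 4.80, adjusted p = 0.000107, limma). The tumors spanned 7.45-fold, with tumor 1 at the top and tumor 2 at the bottom. When 1 library at a time was left out, the log2 fold change lay between 3.31 (without gland 2) and 4.24 (without gland 3), and it was 3.49 without tumor 1. The transcripts for making prostaglandin H2 on demand (Ptgs2) and for removing the final product (Hpgd) were thus both higher in the same tumors. Protein levels and enzyme activity were not measured here. Tumor 1 had the highest Hpgd and the lowest Ptgs2, and tumor 7 had the second-highest Ptgs2 and the second-lowest Hpgd, whereas tumor 9 had the highest Ptgs2 and the third-highest Hpgd and tumor 6 was low in both. Per kilobase, the ratio of Hpgd to Ptgs2 was 6.03 to 325 in the tumors, with a median of 32.4, and 89.8 to 158 in the glands, where it rests on 3 or 4 Ptgs2 reads per library. The ratio of Hpgd to the summed cyclooxygenases was 2.49 to 31.0 in the tumors and 0.750 to 3.84 in the glands. The ranges overlapped for both ratios.

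**Figure D5:**
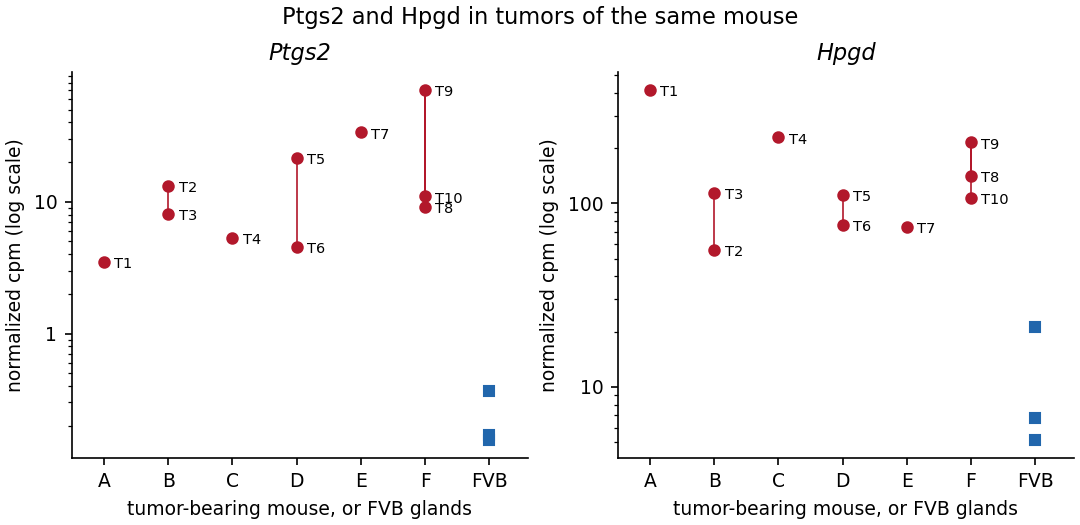
Ptgs2 (left) and Hpgd (right) in normalized cpm on a log axis, with tumors (red, T1 to T10) grouped by the female they came from (A to F; lines join tumors of the same female) and the 3 FVB glands as blue squares. Tumors 8, 9 and 10 of female F span 7.71-fold for Ptgs2 and 2.01-fold for Hpgd.

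Tumors of the same female also differed from each other. For Ptgs2, the 3 tumors of the female with tumors 8, 9 and 10 spanned 7.71-fold. Tumors 5 and 6 differed by 4.75-fold, and tumors 2 and 3 by 1.64-fold. The same females showed little spread for Ptgs1, at 1.33-fold, 1.04-fold and 1.13-fold in that order, whereas Hpgd spanned 2.01-fold, 1.46-fold and 2.05-fold, less than Ptgs2 in the first pair of females and more than Ptgs2 between tumors 2 and 3. When tumors were averaged by female before the test, the calls for Ptgs1, Ptgs2, Hpgd and Ptger3 were the same, with log2 fold changes of 1.13, 3.42, 3.83 and -3.37 and a highest adjusted p of 0.00254 (limma). Ptgds then passed the 2-fold limit as well, at -1.02 (adjusted p = 0.0195).

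The order of the levels per kilobase of exon also differed between the tissues. In the tumors, Hpgd had the highest median (67.0 normalized cpm per kilobase), followed by Ptges (26.1), Ptges2 (7.90), Ptgs1 (7.01), Ptger4 (4.21), Ptger2 (2.75), Ptgs2 (2.20), Ptgis (0.629), Ptgds (0.325) and Ptger3 (0.253). The ranges of neighbours in this order overlapped, except for Ptges and Ptges2. In the glands, Ptges was first (36.1), followed by Ptges2 (6.07), Ptger3 (5.07), Hpgd (3.99), Ptger4 (3.73), Ptger2 (3.68), Ptgs1 (3.20), Ptgds (1.30), Ptgis (0.845) and Ptgs2 (0.0374). Ptgs2 was thus the least abundant of the 10 genes in the glands. In the tumors, Ptger3 had the lowest median but was not the lowest in every tumor. In tumor 7, for example, it was at 0.774 against 0.191 for Ptgds. Ptges and Ptges2, Ptges2 and Ptger3, Ptgs1 and Ptgds, and Ptgis and Ptgs2 did not overlap as neighbours in the glands.

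Other genes of prostanoid metabolism and signaling were called about as often in the upward direction as genes in general. Of 17 listed synthases, receptors, transporters and degrading enzymes, 2 were significantly higher in the fit without the filter and 15 did not pass the test, beside 10.5% higher and 10.1% lower among all genes. Across the 17, log2 fold changes had a median of 0.25, compared with 0.01 over all listed genes. The hematopoietic prostaglandin D synthase Hpgds (log2 fold change 0.87, adjusted p = 0.0137), the prostacyclin receptor Ptgir (-0.75, adjusted p = 0.0364) and the reductase gene Zadh2 (-0.74, adjusted p = 0.000391), named after their values were seen, passed the false discovery rate but not the 2-fold limit. Ptgr1 (chr4:58965590-58987131), a reductase that acts after Hpgd in the breakdown of prostaglandins and also inactivates leukotriene B4, was at 40.7 ± 10.4 normalized cpm (SD, n = 10 tumors) against 9.17 ± 2.87 (SD, n = 3 glands). Ptgr1 thus had a log2 fold change of 2.03 (SE 0.24, adjusted p = 1.97e-05, limma without the filter), and all tumors exceeded all glands. Akr1c18, whose product reduces progesterone and can act on prostaglandins, was at 6.35 ± 5.71 (SD, n = 10) and 1.17 ± 1.05 (SD, n = 3) normalized cpm (log2 fold change 1.63, adjusted p = 0.0164), with 9 tumors above all glands. The prostaglandin transporter Slco2a1, named after its values were seen, was at 32.7 ± 23.2 (SD, n = 10) and 21.2 ± 11.6 (SD, n = 3) normalized cpm (log2 fold change 0.50, adjusted p = 0.526).

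Upstream of the cyclooxygenases, the genes that release arachidonic acid moved in both directions. Of 12 listed genes, 5 were significantly higher, 3 were significantly lower and 4 did not pass the test, beside 10.5% higher and 10.1% lower among all genes, and the median log2 fold change was 0.69. The genes with the largest rise encode phospholipases A2. Pla2g4e was at 10.1 ± 11.2 normalized cpm (SD, n = 10 tumors). Pooled over libraries, its 965 tumor reads and 3 gland reads gave a ratio of 158 after scaling for library size (exact 95% counting interval 53.8 to 766), and a ratio of 102 (34.9 to 498) without tumor 7, the highest one, an alternative chosen after seeing the data (adjusted p = 0.000711 with all libraries, limma without the filter). Pla2g2f was at 7.51 ± 6.01 normalized cpm (SD, n = 10) and had 0 reads in all glands, at least 34.7-fold higher against a floor of 3 reads per gland, or 26.4-fold without tumor 7 (adjusted p = 8.00e-05). Pla2g5 was at 4.91 ± 1.68 (SD, n = 10) and 0.822 ± 0.725 (SD, n = 3), with a log2 fold change of 1.74 (adjusted p = 0.000586). Pla2g2e and Pla2g4f, named after their values were seen, completed the 5 higher genes with log2 fold changes of 1.41 and 1.08. The squamous markers were higher in the same tumors (9 of 10 significantly; 577 to 4194 against 17.1 to 41.6 normalized cpm in sum), and their part in these levels was not tested. The 3 lower genes were Mgll, the monoacylglycerol lipase, Plaat3, a phospholipase of adipose tissue, and Pla2g2d. Mgll was at 71.8 ± 28.7 (SD, n = 10) and 435 ± 61.6 (SD, n = 3) normalized cpm, with a log2 fold change of -2.69 (adjusted p = 3.59e-05). Plaat3 fell from 193 ± 113 (SD, n = 3) to 47.5 ± 12.5 (SD, n = 10), with a log2 fold change of -1.90 (adjusted p = 0.000158), and Pla2g2d from 21.0 ± 15.3 (SD, n = 3) to 2.03 ± 0.963 (SD, n = 10), with a log2 fold change of -2.47 (adjusted p = 0.00114). The lower adipocyte and lymphocyte markers given above moved with these 3 genes, and their part was not tested.

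In the neighboring lipoxygenase and leukotriene branch, 7 of 13 listed genes were significantly higher and 1 was significantly lower, beside the same 10.5% and 10.1% of all genes, and the median log2 fold change was 1.29. The neutrophil markers (302 to 3939 normalized cpm in sum per tumor, 3.92 to 49.3 per gland) and the squamous markers (9 of 10 higher) moved with this group, and their part was not tested. The leukotriene B4 receptors Ltb4r1 and Ltb4r2 were at 8.91 ± 3.74 and 4.19 ± 1.51 normalized cpm in the tumors (SD, n = 10) against 0.737 ± 0.365 and 0.217 ± 0.189 in the glands (SD, n = 3). Their log2 fold changes were 2.43 (adjusted p = 5.68e-05, limma without the filter) and 2.06 (adjusted p = 1.79e-05). Alox15, a lipoxygenase that oxidizes arachidonic acid, was at 16.5 ± 4.41 (SD, n = 10) and 2.95 ± 1.55 (SD, n = 3), with a log2 fold change of 2.20 (adjusted p = 3.06e-05). Ltc4s, the leukotriene C4 synthase, was the lower gene, at 1.66 ± 0.700 (SD, n = 10) and 8.48 ± 2.15 (SD, n = 3), with a log2 fold change of -1.85 (adjusted p = 5.14e-05). Among 10 listed genes known to respond to cyclic AMP, the messenger downstream of EP2 and EP4, 1 was significantly higher and 9 did not pass the test, a share close to the 10.5% of all genes, and the median log2 fold change was 0.21. The higher gene was Fos, an immediate early gene that many other stimuli also induce, at 59.1 ± 16.7 normalized cpm (SD, n = 10 tumors) against 6.56 ± 3.78 (SD, n = 3 glands) (log2 fold change 3.06, adjusted p = 1.63e-06).

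Across the 10 tumors, the genes whose log2 levels ran most closely with each deregulated cyclooxygenase and with Hpgd are given as a description, since the tumors came from 6 females and many genes were screened. For Ptgs1 these were Spry2 (Pearson r = 0.983, Spearman rho = 0.988), Vasn (0.962 and 0.903) and Alox12 (0.936 and 0.903), with r of 0.973, 0.930 and 0.830 without tumors 7 and 4. For Ptgs2 they were Csgalnact1 (r = 0.944, rho = 0.939), Ppfibp1 (0.941 and 0.891) and Upp1 (0.933 and 0.879). Without tumors 9 and 7, which lay farthest from the median of Ptgs2, r was 0.825, 0.796 and 0.890. For Hpgd they were Mgp (r = 0.937, rho = 0.879), Invs (0.937 and 0.952) and Cd1d1 (0.918 and 0.891), with r of 0.865, 0.894 and 0.870 without tumors 1 and 4. The lists of the 3 genes had no gene in common. Cd1d1 was lower in the tumors than in the glands (log2 fold change -1.60, adjusted p = 0.00153, limma), although it ran with Hpgd among the tumors.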

How the data were processed

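RNA of 10 mammary tumors and 3 FVB mammary glands was analysed from the deposited gene table of 15213 Entrez IDs. Per the methods, the authors aligned 75-base paired-end reads to mm10 (Rsubread), summarized them by gene (featureCounts) and applied the edgeR normalization. The strand setting is not given in the sources used here. The deposited signal values are read counts relative to an effective library size, called normalized cpm here. Dividing by the worth of 1 read gave whole reads for 100% of the values in every library (tolerance 0.1 read), and these recovered reads were used where counts were needed. The labels name 2 sequencing sites without assigning libraries, so that no batch could be examined.

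Tumors and glands were compared with limma 3.58.1 (R 4.3.3, with a trend of the variance) on log2(normalized cpm + 1) over 13 libraries, with Benjamini-Hochberg adjustment over all genes tested. Genes at 5 normalized cpm or less in more than 50% of the libraries were removed (3418 genes). Lists were counted in the fit without the filter. edgeR 4.0.16 and DESeq2 1.42.0 on recovered reads were alternatives. Replicates are separate tissue samples, and p-values treat the tumors as independent, although females contributed up to 3. The consensus correlation of tumors of the same female was 0.0477. On simulated counts for this comparison (15213 genes), 193 of 200 changed genes were recovered and 7 unchanged genes were called. The simulation gave every gene the same dispersion and drew all libraries independently. Its changes were planted in genes past the filter, were all larger than that of Ptgs1, and were fitted without the filter. In the real tumors, the SD of Ptgs2 was 114% of its mean. The recovery therefore does not measure the sensitivity for genes this variable or for changes as small as that of Ptgs1. No library appeared to be deposited more than once. Depth lay between 6176269 and 23889042 reads. The exact intervals of pooled read ratios and the floors cover counting error only, whereas the limma intervals rest on the spread between libraries.

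Positions are from RefSeq GRCm38.p6, the build of mm10, joined by Entrez ID for 15106 genes. Merged exon lengths are from GENCODE vM21 on the same build (14246 genes). Start-site windows are from RefSeq, for 9 of the 10 genes (Ptgis had no entry). The 10 genes, the pathway and the marker lists were chosen with earlier results of these data known. Named genes were all 10, and up to 3 with the largest rise and 3 with the largest fall among the significantly deregulated genes of each pathway list. Also named were the 3 with the highest Pearson r over the tumors for Ptgs1, Ptgs2 and the gene with the largest change past the filter. This last gene was Hpgd at a pseudocount of 1 with all libraries. It would have been Ptgs2 at smaller pseudocounts, in the count tests, without tumor 1 or without gland 2. In total, 26 alternatives were tried. A mast cell list (5 of 6 genes listed, 1.33 to 42.4 normalized cpm in sum per tumor and 3.61 to 11.7 per gland), a basal epithelial list (5 of 6 higher), a lymphatic list (1 of 4 lower) and a list of smooth muscle and pericyte genes (1 of 6 lower) were also counted.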

Additional observations from a re-analysis of the deposited data

Results flagged for a closer look

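Among the 10 tumors, 7 genes had 1 tumor set apart from the others by a gap that was large for the range of the group (Dixon's criterion at 95%). The 10 prostaglandin genes and the named genes of the pathway lists were screened at both ends, in normalized cpm without a logarithm. The criterion flags about 1 group in 20 by chance only where values are normally distributed, so the 7 cannot be set against that rate. All 7 were at the high end. Tumor 9 was the highest for Ptgs2, with 70.8 normalized cpm against 33.7 in the next tumor, a gap of 0.552 of the range. The same tumor was the highest for Ptger4, with 60.1 against 40.7 normalized cpm (0.504), and for Fos, with 98.8 against 68.0 (0.486). Tumor 9 also had the largest share of Rn45s reads and the smallest normalization factor of the tumors. Tumor 1 was the highest for Hpgd, with 415 against 228 normalized cpm (0.520). Tumor 7 was the highest for Akr1c18, with 21.9 against 7.76 normalized cpm (0.694), for Pla2g4e, with 41.5 against 9.04 (0.808), and for Pla2g2f, with 23.8 against 8.65 (0.730). Whether these tumors differ in cell composition was not tested.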

How the results depend on the processing

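The calls for Ptgs2 and Ptger3 were the same under all 26 alternatives, with log2 fold changes of 2.76 to 6.41 and of -4.30 to -3.24. The numbers 1 to 3 are shared by tumors and glands of different animals and pair them by name only. Deviations of same-numbered samples correlated at -0.579, 0.0447 and -0.664. Tumors 1 and 3 correlated least with the gland of their own number, and best with gland 3 (0.669) and gland 1 (0.674). Only tumor 2 correlated best with its own number. With the replicate block, in which tumors 4 to 10 share no number with a gland and so add nothing to the contrast, fewer genes were significantly deregulated, 362 in place of 1204 higher and 182 in place of 825 lower, 1 in place of 3 prostaglandin genes was higher, and 8 and 2 in place of 15 and 4 other pathway genes were higher and lower. Under it, the log2 fold changes of Hpgd and Ptgs1 were 3.78 and 1.04, with adjusted p of 0.0591 and 0.154 (limma). Plain cpm, under which the median gene moved to a log2 fold change of 0.33, gave 1886 higher and 513 lower genes, and no filter gave 1538 lower genes. Scaling to epithelial genes moved that median to -0.20. Prostaglandin genes that were lower numbered 2, with Ptgds added, in edgeR, DESeq2, at pseudocounts of 0.5 and 0.1, with epithelial scaling, with tumors averaged by female, without the 3 tumors of female F, without tumor 10 and without gland 2. Lower pathway genes numbered 7 with epithelial scaling, without gland 3, and without tumor 9 and gland 3 together, the last chosen after seeing the data. Leaving out 1 library gave 1003 to 1537 higher and 658 to 1123 lower genes, 2 to 3 higher and 1 to 2 lower prostaglandin genes, and 11 to 16 higher and 4 to 7 lower pathway genes. Directions turned only for genes without a call: Ptger2 to 0.15 (plain cpm) and 0.012 (without gland 3; -0.39 to 0.012 over single libraries left out), Ptger4 to -0.018 (epithelial scaling), and Ptges2 to -0.0048 (edgeR), -0.18 (epithelial scaling), -0.15 (without gland 1) and -0.056 (without gland 2), with -0.15 to 0.33 over single libraries left out. The causes were not tested. Depth limits Ptgs2 in the glands, and Ptgis, Ptgds and Ptger3 in the tumors.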
